A study of Mus musculus with 6 samples.

Results

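The genes described here encode the Rab GTPases, their effectors and the motors that carry melanosomes, the pigment organelles, through a melanocyte and hold them at its edge. They are Rab27a, Mlph, Myo5a, Rab38, Rab32, Mreg, Sytl2, Rabggta, Rab17 and Kif13a, chosen by function with earlier results of these data known, and matched by symbol. All 10 were found among the 27067 gene identifiers of the count table. RNA sequencing was done on 6 libraries of B16F10, a pigmented mouse melanoma cell line. The treated group (3 libraries) received an extract of Polianthes tuberosa L., the tuberose, and the control group (3 libraries) is titled control and carries the library name blank. The labels give neither dose nor time, and do not say whether control cells received a solvent or whether replicates were separate cultures, so the p-values measure only the spread between these libraries, which may be technical.

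Melanosomes travel outward along microtubules on kinesins and are then captured in the actin-rich periphery by a complex of 3 proteins, in which GTP-bound Rab27a on the melanosome binds melanophilin (Mlph), and melanophilin binds myosin Va (Myo5a). Mice that lack any of these have diluted coats and are known as ashen (Rab27a), leaden (Mlph) and dilute (Myo5a). Rab38 and Rab32 act earlier and bring enzymes such as tyrosinase from endosomes to the maturing melanosome. Rab proteins need a lipid anchor, which is attached by Rab geranylgeranyl transferase, whose alpha subunit is encoded by Rabggta.

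Total counts were 31183728 to 33717357 per treated library and 31991473 to 40129044 per control library, and the summed counts of the 10 genes were 0.186 to 0.194% of each treated library and 0.220 to 0.224% of each control library. The 9 melanocyte markers (Pmel, Mlana, Tyr, Tyrp1, Dct, Mitf, Sox10, Gpr143 and Slc45a2) each had at least 1 CPM (read counts relative to the library size, which was scaled by TMM factors) in all 6 libraries. Their summed level was 14415 to 15275 CPM in treated and 17424 to 18030 CPM in control libraries, so that it moved with the transport genes; its part in their changes was not tested. Summed markers of keratinocytes, immune cells and endothelial cells reached at most 0.519 CPM in a treated and 0.384 CPM in a control library, and summed fibroblast markers lay at 9.93 to 11.3 CPM in treated and 7.24 to 10.7 CPM in control libraries.

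Where members moved together, their promoters are of interest, and RefSeq promoter windows (build GRCm38.p6, from 250 bases before to 50 bases after a start) were found for 8 of the 10 members, in 12 windows. They were searched on both strands for the E-box forms CACGTG and CATGTG, which MITF, the main transcription factor of pigment cells, is known to bind, for the cAMP response element TGACGTCA and for the AP-1 element TGANTCA; none of these motifs contains another. The genes holding a match were Rab27a and Mlph, 2 of the 8 members with a window, each with 1 CACGTG. Over all genes with a window, 22.7% had CACGTG or CATGTG in at least 1 of their windows, 8.09% had CACGTG, 2.03% had TGACGTCA and 8.97% had TGANTCA. With 8 members no difference from these shares is read. The windows are shown because they hold the match, with the matched letters in capitals. Their genes encode partners in the tethering complex, but the window of Myo5a, the remaining partner, held no match. The Mlph window lies at chr1:90914850-90915149 on the plus strand and its motif begins 48 bases before the start. The second Rab27a window, at chr9:73063898-73064197 on the plus strand, has its motif 246 bases before the start, at the far end of the window. The first Rab27a window, at chr9:73044560-73044859 on the plus strand, is shown beside it because the gene's counts do not tell the starts apart, and it holds no match.
Mlph: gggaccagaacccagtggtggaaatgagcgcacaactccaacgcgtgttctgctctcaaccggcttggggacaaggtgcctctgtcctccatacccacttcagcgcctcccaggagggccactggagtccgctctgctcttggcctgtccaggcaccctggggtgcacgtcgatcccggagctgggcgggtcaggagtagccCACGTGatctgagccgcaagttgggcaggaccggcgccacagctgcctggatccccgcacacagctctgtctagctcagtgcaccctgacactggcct
Rab27a, second start: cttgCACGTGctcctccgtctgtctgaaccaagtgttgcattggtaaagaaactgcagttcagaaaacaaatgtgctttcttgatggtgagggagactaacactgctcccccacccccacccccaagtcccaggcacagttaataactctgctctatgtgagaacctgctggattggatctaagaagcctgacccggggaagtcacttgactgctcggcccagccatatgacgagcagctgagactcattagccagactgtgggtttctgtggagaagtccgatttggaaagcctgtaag
Rab27a, first start: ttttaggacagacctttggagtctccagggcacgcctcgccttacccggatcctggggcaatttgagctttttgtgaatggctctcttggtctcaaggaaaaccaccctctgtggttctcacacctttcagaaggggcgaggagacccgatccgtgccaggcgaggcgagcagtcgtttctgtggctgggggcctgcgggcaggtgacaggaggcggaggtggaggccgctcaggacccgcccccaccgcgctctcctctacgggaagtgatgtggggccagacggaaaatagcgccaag

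Treated cells had less mRNA of the whole tethering complex and of most other members. Of the 10 genes, 8 were lower, Sytl2 was higher and Kif13a did not pass (edgeR quasi-likelihood test, p-values adjusted by the Benjamini-Hochberg method, BH, over 15150 tested genes, call at an adjusted p under 0.05). All 10 passed the filter on low counts. Among all tested genes 53.0% were called, 27.9% lower and 25.1% higher. The groups did not overlap for 9 of the 10 members, against 58.7% of all tested genes (30.3% lower and 28.4% higher). The median log2 fold change (treated over control) was -0.40 over the members and 0.01 over all tested genes. Because the members were chosen with earlier results of these data known, these contrasts with all genes are description only. These libraries are bulk RNA, in which fewer cells of a kind and less RNA per cell cannot be told apart.

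**Figure D1:**
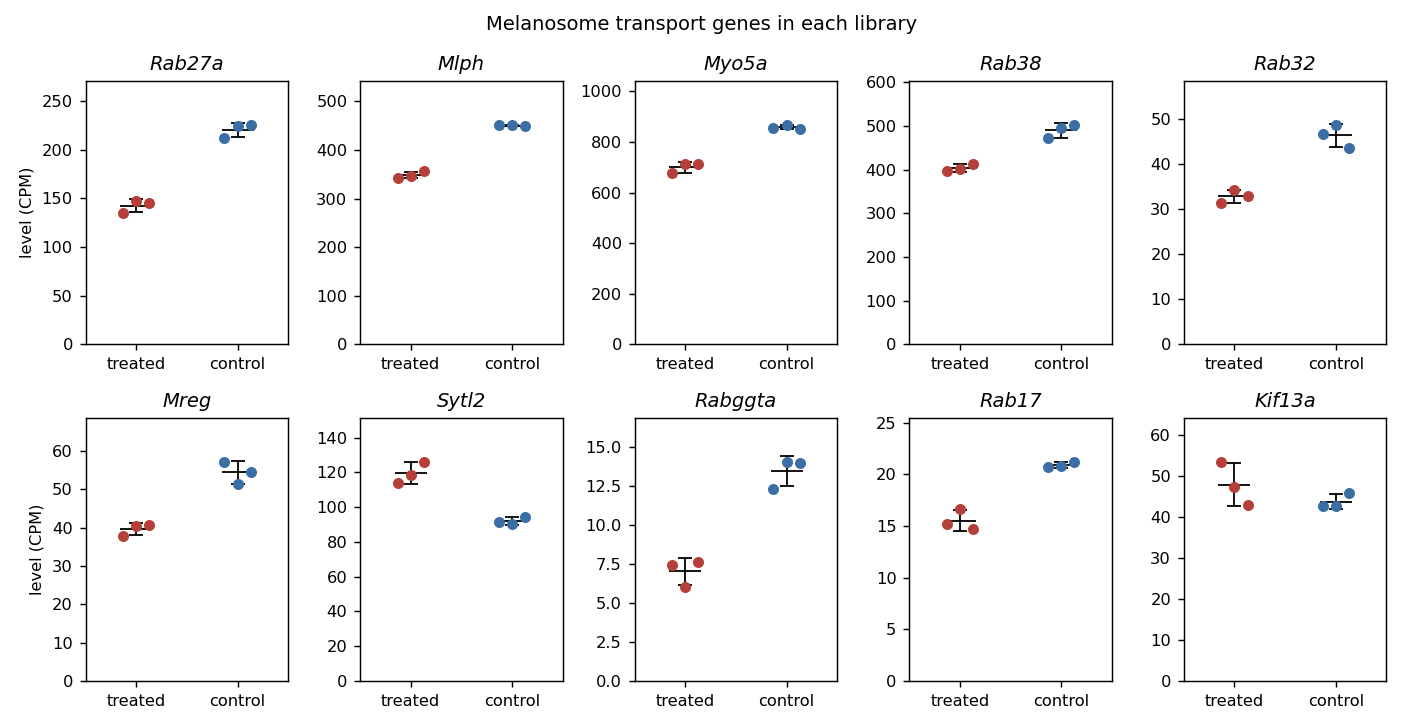
Level of each transport gene in CPM (vertical axes, each from 0) in the 3 treated and the 3 control libraries; points are libraries, the horizontal mark is the mean and the bars are SD. In 8 panels all treated points lie below all control points, in the panel of Sytl2 they lie above, and in that of Kif13a they overlap.

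Rab27a (ENSMUSG00000032202), the GTPase that marks melanosomes for capture, fell most in the tethering complex. It measured 135, 147 and 145 CPM in treated replicates 1, 2 and 3, against 212, 224 and 225 CPM in control replicates 1, 2 and 3. Every treated library lay well below every control library, the mean fell by 35.4%, and the log2 fold change was -0.63 ± 0.03 (SE, edgeR BH-adjusted p = 1.46e-13). A lower log2 fold change was found for 2.31% of tested genes. The annotation places 149 exonic bases of Rab27a under a processed pseudogene, Gm27186, of which no counts were used here; the other members share no exonic base with another annotated gene.

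Mlph (ENSMUSG00000026303), whose product links Rab27a to the motor, measured 343, 347 and 356 CPM in treated libraries, against 452, 451 and 448 CPM in control libraries. The control libraries were nearly alike, with a coefficient of variation of 0.360%, and all treated libraries were lower (log2 fold change -0.37 ± 0.02, edgeR BH-adjusted p = 2.36e-12). Myo5a (ENSMUSG00000034593), the actin motor itself, had the most reads of the 10 genes, with 676, 712 and 712 CPM in treated and 855, 868 and 852 CPM in control libraries. Its mean fell by 18.4%, a log2 fold change of -0.29 ± 0.02 (edgeR BH-adjusted p = 4.30e-11). With level-dependent offsets, which remove a trend of fold change with expression level, the log2 fold changes were -0.23 for Mlph and -0.14 for Myo5a, and both still passed (edgeR BH-adjusted p = 5.97e-09 and 6.38e-06).

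Rab38 (ENSMUSG00000030559), the gene mutated in chocolate mice, measured 396, 401 and 413 CPM in treated libraries, against 471, 495 and 502 CPM in control libraries. It had the smallest change of the 8 lower genes with TMM factors (log2 fold change -0.28 ± 0.02, edgeR BH-adjusted p = 2.08e-09). Myo5a, at -0.29 ± 0.02, was not set apart from it. With level-dependent offsets the value of Rab38 was -0.14 (edgeR BH-adjusted p = 6.03e-05), as was that of Myo5a. The paralog of Rab38, Rab32 (ENSMUSG00000019832), which can stand in for Rab38, measured 31.3, 34.2 and 32.8 CPM in treated and 46.7, 48.6 and 43.5 CPM in control libraries. The groups lay far apart, and the log2 fold change was -0.50 ± 0.05 (edgeR BH-adjusted p = 1.57e-08). The third gene of this Rab subfamily, Rab29, measured 8.83 ± 0.768 CPM in treated and 8.90 ± 1.12 CPM in control libraries (SD, n = 3 each) and did not pass (log2 fold change -0.01 ± 0.11, edgeR BH-adjusted p = 0.959). Per kilobase of exon, Rab38 made up 92.7 ± 0.171% of the summed level of these 3 genes in treated and 92.3 ± 0.314% in control libraries. The share of Rab32 was 5.08 ± 0.218% in treated and 5.89 ± 0.414% in control libraries.

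Mreg (ENSMUSG00000039395) encodes melanoregulin, found as the suppressor of the dilute coat and linked to dynein-driven movement of melanosomes. It measured 37.8, 40.4 and 40.7 CPM in treated libraries, against 57.2, 51.4 and 54.6 CPM in control libraries. All treated libraries were lower (log2 fold change -0.46 ± 0.05, edgeR BH-adjusted p = 1.39e-08). Rab17 (ENSMUSG00000026304), a Rab linked to filopodia and to the release of melanosomes, measured 15.2, 16.6 and 14.7 CPM in treated and 20.7, 20.8 and 21.2 CPM in control libraries. The groups were apart here too (log2 fold change -0.43 ± 0.07, edgeR BH-adjusted p = 1.63e-05).

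Rabggta (ENSMUSG00000040472), the gene of gunmetal mice, changed most of all members and was the least expressed of them. It measured 7.46, 6.06 and 7.65 CPM in treated libraries, against 12.4, 14.1 and 14.0 CPM in control libraries. These levels rest on 210 to 253 counts per treated and 438 to 483 counts per control library. Its mean fell by 47.7%, a log2 fold change of -0.93 ± 0.10 (edgeR BH-adjusted p = 3.49e-08), and 0.561% of tested genes had a lower value. Rabggtb, which encodes the beta subunit of the same enzyme, had 71.9 ± 1.59 CPM in treated and 77.8 ± 1.16 CPM in control libraries. Its fall of 0.11 on the log2 scale passed (edgeR BH-adjusted p = 0.00612) but not with library totals or with level-dependent offsets, the highest adjusted p being 0.380.

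Sytl2 (ENSMUSG00000030616), which encodes a synaptotagmin-like effector of Rab27a that holds melanosomes near the plasma membrane, went the other way. It measured 114, 119 and 126 CPM in treated libraries, against 91.5, 90.3 and 94.5 CPM in control libraries. All treated libraries were above all control libraries, with a log2 fold change of 0.38 ± 0.03 (edgeR BH-adjusted p = 3.40e-09). Per kilobase it carried 95.8 ± 0.739% of the summed level of Sytl1, Sytl2, Sytl3 and Sytl4 in treated and 93.7 ± 1.43% in control libraries. Sytl4 did not pass (log2 fold change -0.43 ± 0.23, edgeR BH-adjusted p = 0.121), and Sytl1 and Sytl3, at no more than 12 counts in any library, were not tested.

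Kif13a (ENSMUSG00000021375), a kinesin that with the adaptor AP-1 brings cargo from recycling endosomes to melanosomes, measured 53.5, 47.2 and 43.0 CPM in treated libraries, against 42.7, 42.7 and 45.8 CPM in control libraries. The groups overlapped, and the treated libraries were spread by a coefficient of variation of 11.0%, against 4.10% in control libraries. The log2 fold change of 0.13 ± 0.06 did not pass (edgeR BH-adjusted p = 0.0576). Treated replicate 1 was the highest, and without it the value was 0.04 (edgeR BH-adjusted p = 0.545). Over all 14 alternatives 9 called it higher, and the adjusted p was between 0.00403 and 0.545.

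**Figure D2:**
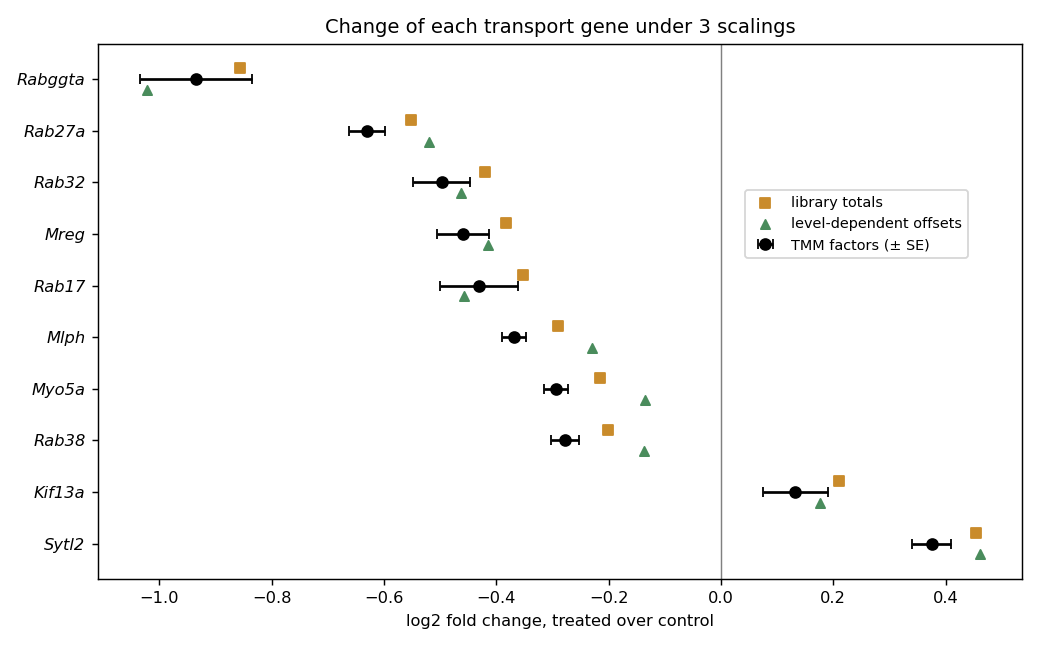
Log2 fold change of each transport gene, treated over control, with TMM factors (circles, bars are SE), with library totals (squares) and with level-dependent offsets (triangles). No gene crosses 0 under these scalings, and the abundant genes Myo5a and Rab38 lie nearest to 0 with level-dependent offsets, at -0.14 each.

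Set side by side per kilobase of exon, Rab38 was the most abundant member, at 256 ± 5.62 CPM per kilobase in treated and 310.3 ± 10.3 in control libraries (SD, n = 3 each). Mlph followed at 65.1 ± 1.26 in treated and 84.1 ± 0.302 in control libraries. Myo5a and Rab27a came next: at 58.0 ± 0.571 and 56.9 ± 1.88 CPM per kilobase in control libraries they did not differ beyond their spread, whereas in treated libraries Myo5a had 47.3 ± 1.40 and Rab27a 36.7 ± 1.70. Mreg and Rab32 lay between 14.0 and 23.8 CPM per kilobase. Rab17 and Sytl2 changed places, with 7.78 ± 0.514 and 8.57 ± 0.454 CPM per kilobase in treated and 10.5 ± 0.145 and 6.61 ± 0.153 in control libraries, the treated values being within each other's spread or close to it. Kif13a had 5.92 ± 0.653 in treated and 5.40 ± 0.222 in control libraries, and Rabggta was lowest, at 1.87 ± 0.231 and 3.58 ± 0.260 CPM per kilobase in treated and control libraries. These orders depend on the gene length used. With the longest annotated transcript in place of all exons, Sytl2 had 27.5 CPM per kilobase in treated and 21.2 in control libraries. Rab17 then had 8.46 in treated and 11.4 in control libraries, so these genes did not change places. By that length Sytl2 instead changed places with Mreg and Rab32. In control libraries it lay below Mreg (23.8) and just below Rab32 (21.5), and in treated libraries above both (17.3 and 15.3). By that length Myo5a and Rab27a had 73.3 and 69.6 CPM per kilobase in control libraries.

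**Figure D3:**
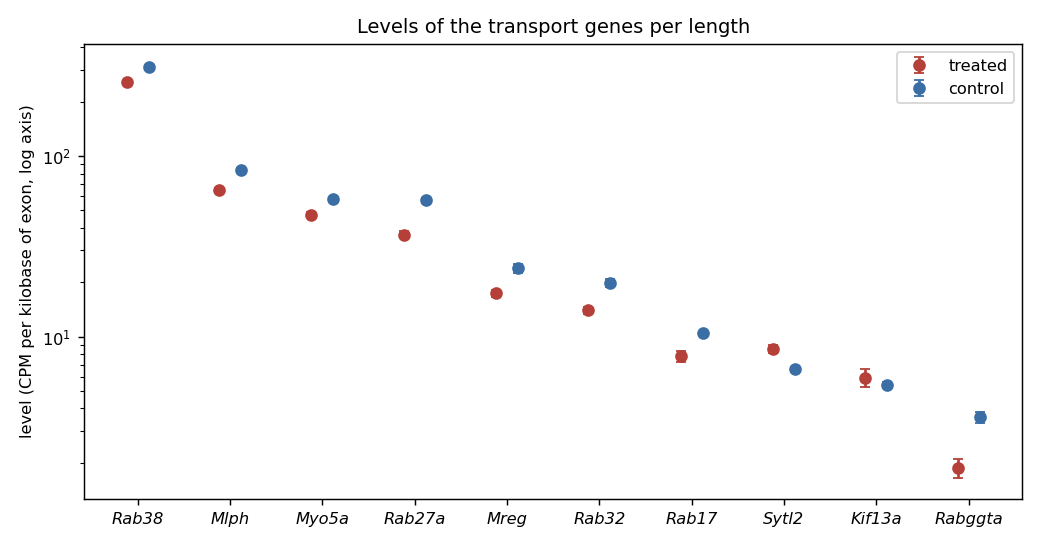
Level of each transport gene per kilobase of exon (CPM per kilobase, log axis) in treated and control libraries; points are means of 3 libraries and bars are SD, hidden where smaller than the point. Rab38 stands above the rest at 256 in treated and 310.3 in control libraries, and Rabggta is lowest at 1.87 and 3.58.

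The ratio of 2 genes within the same library does not depend on a scaling by 1 factor per library, and shows whether read counts of members fell alike. Level-dependent offsets differ between genes of a library and were not applied to these ratios. For 7 pairs the ratio of read counts was compared over the libraries with a two-sided exact permutation test, which with 3 against 3 cannot go below p = 0.10. Every pair reached that p (adjusted p = 0.10 over the 7 pairs) and had no overlap of the groups, so none can pass the threshold in this design. Within the tethering complex, Rab27a had fewer reads relative to either partner in every treated library than in any control library. There were 0.200, 0.207 and 0.204 reads of Rab27a per read of Myo5a in treated libraries, against 0.248, 0.258 and 0.265 in control libraries, a log2 difference of -0.34 ± 0.03 (SE). Reads of Rab27a per read of Mlph numbered 0.408 ± 0.0156 in treated and 0.490 ± 0.0176 in control libraries (SD, n = 3 each). Mlph and Myo5a stayed closer to each other, with 0.499 ± 0.00999 in treated and 0.525 ± 0.00457 in control libraries, a log2 difference of -0.07 ± 0.02.

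The ratio of Sytl2 to Rab27a, both of which act on the same melanosomes, moved most. It was 0.842, 0.805 and 0.871 in treated libraries, against 0.431, 0.403 and 0.419 in control libraries. The log2 difference of 1.01 ± 0.04 combines a rise of the effector and a fall of the GTPase. Rabggta had 0.0980 ± 0.0103 reads per read of Rabggtb in treated and 0.173 ± 0.0113 in control libraries, a log2 difference of -0.83 ± 0.11 between subunits of the same enzyme. The ratio of Rab38 to Rab32 was 12.3 ± 0.526 in treated and 10.6 ± 0.810 in control libraries, and that of Kif13a to Myo5a was 0.0686 ± 0.00959 in treated and 0.0510 ± 0.00244 in control libraries.

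**Figure D4:**
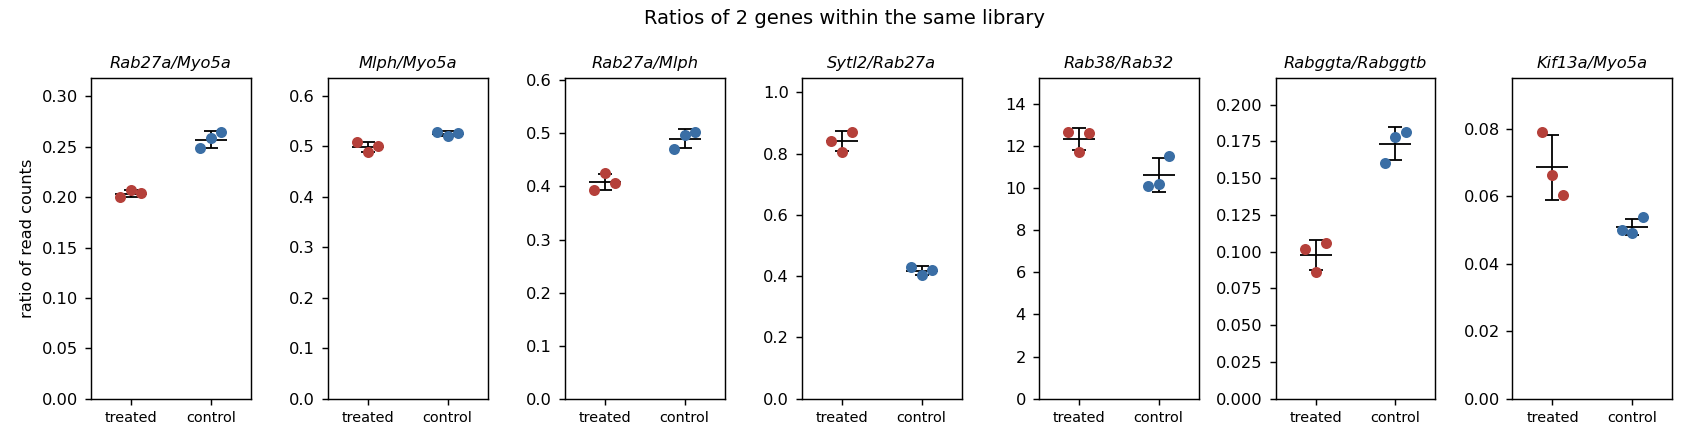
Ratio of the read counts of 2 genes within each library (vertical axes, each from 0) for 7 pairs, in treated and control libraries; points are libraries, the horizontal mark is the mean and the bars are SD. The ratio of Sytl2 to Rab27a lies between 0.805 and 0.871 in treated and between 0.403 and 0.431 in control libraries, and the ratio of Mlph to Myo5a differs least.

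Genes that work with the members were counted in 6 lists, without the members themselves. Of 69 tested genes 23 fell (33.3%), 18 rose (26.1%) and 28 did not pass, where 27.9% of all tested genes fell and 25.1% rose. The median log2 fold change was -0.01 (0.01 over all tested genes), so that these partners as a whole changed about as often as other genes. The split depended on scaling: with library totals 16 fell and 31 rose, and with level-dependent offsets 15 fell and 25 rose. Of the called genes among all tested, 47.4% were higher with TMM factors. The share was 62.5% if library totals were used and 50.9% if level-dependent offsets were. For the lists these shares were 43.9%, 66.0% and 62.5%.

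Genes for Rab prenylation and recycling went both ways, 3 lower and 3 higher of 9 tested (33.3% each, median log2 fold change 0.004). Of all tested genes 27.9% were lower and 25.1% higher. Gdi2, which encodes a GDP dissociation inhibitor that extracts Rabs from membranes, had 357 ± 2.97 CPM in treated and 442 ± 3.36 CPM in control libraries, a fall of 0.31 on the log2 scale (edgeR BH-adjusted p = 2.98e-11). Chml, which encodes a Rab escort protein that presents Rabs to the transferase, rose by 0.47 ± 0.09 (edgeR BH-adjusted p = 1.20e-04), while the other escort gene, Chm, did not pass (log2 fold change 0.004 ± 0.07, edgeR BH-adjusted p = 0.969).

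Relatives and effectors of Rab27 other than Sytl2 and Mlph were scarce. Of 8 measured, 4 passed the filter on low counts and 1 of these rose, where 25.1% of all tested genes rose. Myrip, Exph5 and Sytl3, which encode other Rab27 effectors, had at most 4 counts in any library and were not tested. Rph3a, an effector known from neurons, rose, at a very low level, with 11 to 16 counts per treated and 0 to 8 counts per control library (log2 fold change 1.79 ± 0.62, edgeR BH-adjusted p = 0.0183). Its call was lost with level-dependent offsets, without treated replicate 2 and without control replicate 1 or 2 (edgeR BH-adjusted p up to 0.0783). Rab27b and Sytl5 were not analysed here.

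Of 12 genes that regulate these Rabs, 2 fell (16.7%), 1 rose (8.33%) and 9 did not pass (median log2 fold change 0.01), against 27.9% lower and 25.1% higher of all tested genes. Sgsm2, which encodes a GTPase-activating protein with activity on Rab32 subfamily members, had 86.0 ± 2.85 CPM in treated and 119 ± 3.22 CPM in control libraries (log2 fold change -0.47 ± 0.03, edgeR BH-adjusted p = 1.72e-11). Madd, an exchange factor for Rab27, fell by 0.16 (edgeR BH-adjusted p = 0.00488), a call that was lost with library totals (edgeR BH-adjusted p = 0.136). Hps1 and Hps4 form the exchange factor for Rab32 and Rab38. Hps1 rose by 0.30 ± 0.05 (edgeR BH-adjusted p = 5.19e-05), and Hps4 had a log2 fold change of -0.12 ± 0.06 (edgeR BH-adjusted p = 0.0983).

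Other Rabs of endosome and melanosome traffic included 7 that rose and 3 that fell of 14 tested, where 25.1% of all tested genes rose and 27.9% fell. With level-dependent offsets 7 rose and 2 fell. With library totals 10 rose and 2 fell, a scaling that also moved all genes upward, with 5069 called higher and 3045 lower. Their median log2 fold change was 0.15 with TMM factors. Rab31, a Rab of the trans-Golgi and endosomes, rose most, with 123 ± 2.40 CPM in treated and 90.2 ± 1.23 CPM in control libraries (log2 fold change 0.44 ± 0.03, edgeR BH-adjusted p = 1.07e-11). The early endosome gene Rab5b rose by 0.26 and Rab10, a Rab of exocytic traffic, by 0.22, whereas Rab8a, a Rab of polarised secretion, fell by 0.27 on the log2 scale.

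Among 12 tested genes for actin motors and actin assembly, 7 fell (58.3%) and 2 rose (16.7%), against 27.9% and 25.1% of all tested genes. This balance turned with level-dependent offsets, where 3 were lower and 6 higher, and was 4 lower and 5 higher with library totals. Myo7a, a myosin known from hair cells and the pigmented epithelium of the retina, was abundant and fell clearly, with 456 ± 9.04 CPM in treated and 608 ± 6.57 CPM in control libraries (log2 fold change -0.41 ± 0.02, edgeR BH-adjusted p = 1.49e-13). With level-dependent offsets its value was the highest over all alternatives, -0.27, and it still passed. Fmn1 and Spire2 encode actin assembly factors that cooperate on organelles including melanosomes. Fmn1 fell by 0.30 and Spire2 rose by 0.46 ± 0.11 on the log2 scale (edgeR BH-adjusted p = 8.94e-09 and 0.00101). Cdc42, a GTPase of filopodia, fell by 0.16 on the log2 scale but did not pass with level-dependent offsets (edgeR BH-adjusted p = 0.357). The other class V myosins, Myo5b and Myo5c, had at most 8 counts in any library, and Myo5a made up almost all of the class.

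Of 18 genes for microtubule motors and adaptors, 8 fell (44.4%), 4 rose (22.2%) and 6 did not pass (median log2 fold change -0.11), where 27.9% of all tested genes fell and 25.1% rose. With level-dependent offsets 5 were lower and 5 higher. The largest changes were falls. Ap1m1 and Ap1s1, which encode subunits of the AP-1 adaptor that works with Kif13a, fell by 0.41 and 0.36, and Dync1li1, a light intermediate chain gene of dynein, fell by 0.31 on the log2 scale (edgeR BH-adjusted p = 1.89e-09, 5.76e-10 and 4.28e-10). Kif13b, the closest relative of Kif13a, did not pass (log2 fold change -0.09 ± 0.05, edgeR BH-adjusted p = 0.122).

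**Figure D5:**
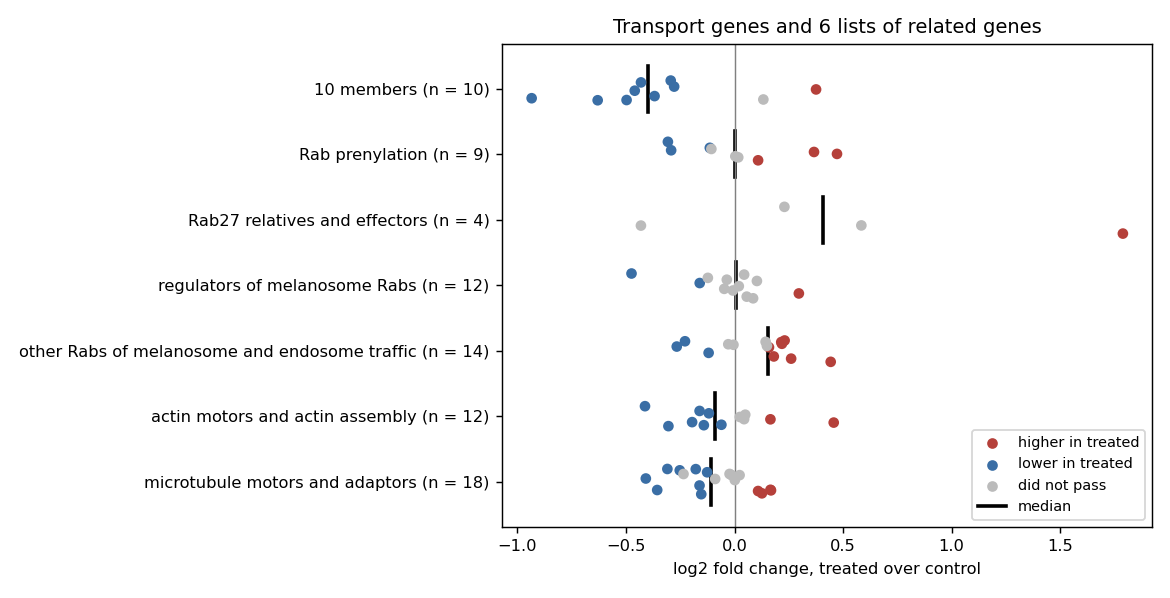
Log2 fold change, treated over control, of the 10 transport genes and of the tested genes in 6 lists of related genes; each point is a gene, coloured by its call, and the black line is the median. The median of the 10 transport genes is -0.40, and those of the lists lie between -0.11 and 0.41 (the list of Rab27 relatives and effectors, with 4 tested genes, being the highest).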

How the data were processed

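Polyadenylated RNA of 6 B16F10 libraries was sequenced, and the authors deposited whole-number read counts per gene under Ensembl identifiers. Reads had gone through fastp (0.22.0), HISAT2 (2.2.0) and featureCounts (2.0.6), per the submitters' processing notes, in which mm39 and hg38 both appear without a stated role. The strand setting and annotation release of the counting were not given in the sources used here. Symbols, biotypes and exonic lengths came from GENCODE M21 (GRCm38), another build than the listed mouse one, so the only coordinates given are those of the RefSeq promoter windows. Of the identifiers, 26531 had a symbol there and 536 had none. The 6 columns were matched through the library names; 0 were unmapped and 0 rows named no gene.

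Counts were filtered with filterByExpr (minimum count 10, minimum total 15), scaled by TMM and tested with edgeR 4.0.16 (R 4.3.3) by the quasi-likelihood F test, two-sided, with group as the only term, over all 15150 genes that passed. The steps were tested on simulated data with far fewer changed genes than were called here. That simulation did not test scaling under such wide change. SE was derived from the F statistic, as the size of the log2 fold change over the root of F. The biological coefficient of variation was 3.70%, and correlations of log2 CPM were 0.993 to 0.994 within and 0.985 to 0.986 between groups. CPM, per-kilobase levels and ratios were computed from the deposited counts. Alternatives used limma 3.58.1 (cyclic loess) and DESeq2 1.42.0. Every member is named, and from each list the changed genes with the 3 smallest p and the 3 largest changes, besides genes in ratios; genes named beyond that (paralogs, partner subunits and untested genes) were chosen after their values were seen. The values of 1 list gene are not reported here. The members, lists and tests were chosen with earlier results of these data known.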

Additional observations from a re-analysis of the deposited data

How the results depend on the processing

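The 8 members called lower were 8 in all 14 alternatives, and each of these genes and Sytl2 passed in every one of them with the same sign. Members called higher numbered 1, and 2 where Kif13a also passed: with median-of-ratios factors, library totals, level-dependent offsets, no filter on low counts, a minimum of 1 CPM in 3 libraries, only protein-coding genes and the replicate block, and 1 to 2 when each library was left out in turn. Kif13a did not pass in DESeq2. The 23 list genes called lower became 15 with level-dependent offsets and 22 to 24 with a library left out, and the 18 called higher became 31 with library totals and 14 to 18 with a library left out; the cause was not tested. The median log2 fold change of all tested genes was 0.08 with library totals and 0.01 with TMM factors. Log2 differences of the 7 ratios kept their sign whichever library was left out, with that of Kif13a to Myo5a ranging from 0.31 to 0.51 and that of Mlph to Myo5a from -0.09 to -0.06.

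Nothing in the labels says that a shared replicate number marks a shared culture. Deviations of same-numbered libraries from their group means correlated by -0.01, -0.04 and 0.01, so no large shared shift was seen. Such correlations cannot exclude a shared culture or day, and whether the numbers pair the libraries is not known. The replicate block called 8 members lower and 2 higher, and 23 and 19 list genes. Low counts left Sytl1, Sytl3, Myrip, Exph5, Myo5b and Myo5c untested. Of the 10 members, Rabggta had the largest SE of its log2 fold change, 0.10.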

Other observations

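Motor genes outside the members also showed patterns that were chosen after their values were seen. The 4 tested AP-1 adaptor genes on the list fell, as did 27.9% of all tested genes: Ap1m1, Ap1s1, Ap1g1 and Ap1b1, with log2 fold changes of -0.41, -0.36, -0.18 and -0.15, although Ap1b1 did not pass with level-dependent offsets (edgeR BH-adjusted p = 0.155). The 3 kinesin-1 genes on the list, which code for parts of the outward motor of melanosomes on microtubules, rose, as did 25.1% of all tested genes, with Kif5b at 360 ± 3.10 CPM in treated and 320.2 ± 4.71 CPM in control libraries (log2 fold change 0.17 ± 0.02, edgeR BH-adjusted p = 1.22e-06), Klc1 at 0.13 ± 0.03 and Klc2 at 0.17 ± 0.06 on the log2 scale. The call of Klc2 was lost without treated replicate 1 or control replicate 2 (edgeR BH-adjusted p up to 0.124). Plekhm2, which encodes an adaptor between a Rab and kinesin-1, fell, with 180 ± 4.18 CPM in treated and 214 ± 3.85 CPM in control libraries (log2 fold change -0.25 ± 0.03, edgeR BH-adjusted p = 2.92e-08). The dynein heavy chain gene Dync1h1 fell by 0.16 on the log2 scale, a value that was 0.003 with level-dependent offsets (edgeR BH-adjusted p = 0.884).

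Mitf, which encodes the transcription factor named above with the E-box motifs, measured 325, 336 and 341 CPM in treated libraries, against 463, 475 and 482 CPM in control libraries. Its log2 fold change of -0.503 ± 0.02 (edgeR BH-adjusted p = 3.49e-14) stood between those of Rab27a (-0.631) and Rab32 (-0.497). Whether Mitf had a part in the changes of the members was not tested.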
